A study of Mus musculus with 73 samples.

Results

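The mouse Tbx3 locus contributed 6 of the 59 enhancer fragments that were tested in pairs in a reporter assay. They are called Tbx3_E203, Tbx3_E205, Tbx3_E206, Tbx3_E207, Tbx3_E208 and Tbx3_E209, and were chosen by their names alone. All combinations in which 1 of these fragments was joined to a control sequence, or in which both fragments came from this locus, were taken from the deposited table of activities. These were 5764 of 110180 combinations, of which 4930 held a control and 834 were same-locus pairs. A further 14651 pairs joined a Tbx3 fragment to a fragment of another locus and were used only for comparison.

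The study asked how pairs of enhancers act together on a promoter. Random pairs of fragments were cloned downstream of a barcoded reporter gene, in 8 plasmid libraries that differed in the promoter of the reporter. Each library was transfected separately into mouse embryonic stem cells (mESCs), and RNA was collected 24 h later in 3 biological replicates. A fragment could lie in position 1 or position 2 of the pair and on the plus or the minus strand. The 8 groups carried the promoter of Lefty1, Tbx3, Sox2, Fgf5, Nanog, Klf2 or Otx2, which are developmental genes of the pluripotency network, or of the housekeeping gene Ap1m1. All groups shared the same cell line, E14tg2a, and the same vector, and no group differed in genotype or treatment. The plasmids were not integrated, so the fragments were measured outside their chromatin. The negative controls were 20 sequences, 15 of them shuffled and 5 random.

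An enhancer is a stretch of DNA that binds transcription factors and raises transcription from a promoter. Developmental genes often have clusters of them, and the question for such a cluster is whether the effects of its members add up, multiply or interfere. Tbx3 encodes a T-box transcription factor. In mESCs it belongs to the network of factors that maintain the naive pluripotent state, and it has further roles in limb, heart and mammary development. Lefty1 encodes an inhibitor of Nodal signalling, Sox2, Nanog and Klf2 encode pluripotency factors, and Otx2 and Fgf5 rise as cells leave naive pluripotency.

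In the mouse genome build mm10, the listed windows of the 6 fragments are each 450 bp long and lie on chromosome 5. Tbx3_E203 spans chr5:119656667-119657116 and Tbx3_E205 spans chr5:119658334-119658783, and both overlap the long noncoding RNA genes Gm16064 and Tbx3os1 in the RefSeq annotation. Tbx3_E206 spans chr5:119660530-119660979, within Tbx3os1 alone. These 3 fragments lie upstream of the Tbx3 gene, whose annotated start is 13417, 11750 and 9554 bp from their nearer ends. Tbx3_E207 at chr5:119679921-119680370, Tbx3_E208 at chr5:119681134-119681583 and Tbx3_E209 at chr5:119681796-119682245 lie within the Tbx3 gene, which spans chr5:119670534-119684724. Whether they are exonic or intronic was not analysed here. Tbx3_E208 and Tbx3_E209 are neighbours, with 212 bp between their windows. A seventh listed window, Tbx3_E204, occurs in no measured combination.

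The primers that amplified the fragments from the genome mark the ends of the cloned DNA. The paper placed them within the ends of each element, so the products were shorter than the listed windows of 450 bp. They are shown, 5′ to 3′, because they define which DNA was placed beside each promoter, the forward primer first and then the reverse primer of the opposite strand.
Tbx3_E203 forward: ggatggctcaagaaggaagagttctatc
Tbx3_E203 reverse: aatgggtcactgggtcggtg
Tbx3_E205 forward: atcactcttaccttatccaccagtctc
Tbx3_E205 reverse: ccagaattgagatctaactgcttccac
Tbx3_E206 forward: ccagatctgtcactcattaaatgaccc
Tbx3_E206 reverse: cctgccagttgtgtgtaaataataggg
Tbx3_E207 forward: atccaatagagagatgctagggaaagc
Tbx3_E207 reverse: tggtcaatctcgtttccaggtttaaac
Tbx3_E208 forward: cagggtgtagcatctatcttactgagc
Tbx3_E208 reverse: cttgctcaactccagaccaaattctc
Tbx3_E209 forward: ctctgaacccagtaggaaacctctc
Tbx3_E209 reverse: tgttacttattaagatagcaagcgccc

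The activity of a combination is the ratio of its barcodes in cDNA to those in plasmid DNA, each normalised to its library total and averaged over barcodes. Barcode numbers are not part of the deposited table. The depth of an activity is therefore unknown, and no counting error can be attached to it. The baseline of a promoter is its median activity over control-control (CC) combinations. It was lowest for Lefty1, at 0.0866, followed by Tbx3 at 0.112, Sox2 at 0.171 and Fgf5 at 0.213. It was higher for Nanog at 0.324, Klf2 at 0.394, Otx2 at 0.408 and Ap1m1 at 0.587. Dividing an activity by this baseline and taking log2 gives the boost index, and a boost of 1 is a doubling. Across the combinations of Tbx3 fragments, pairs of replicates correlated with Pearson's r of 0.737 to 0.899 in 7 libraries and of 0.517 to 0.713 in the Fgf5 library. In the Fgf5 library only 23 of 60 CC combinations had an activity above 0 in every replicate. It also held all 15 of the Tbx3 fragment-control combinations at 0, of 224 there, and the boost indices below leave out combinations at 0.

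Every Tbx3 fragment raised the activity of the promoters other than Fgf5, with boosts from 0.27 to 2.68. Of 48 fragment-promoter pairs, 44 were above the CC combinations by the exact rank-sum test at 1% FDR, none was below, and 4 did not pass. Over all loci 88.6% of the 446 fragment-promoter pairs passed as higher, so the count at this locus was near the background. All 4 pairs that did not pass were in the Fgf5 library, and without that library 42 of 42 passed. A limma test over the 3 replicates called 44 pairs higher and 1 lower at the same FDR, the lower being Tbx3_E205 with the Fgf5 promoter. When combinations at 0 were kept, an alternative chosen after seeing the data, 47 pairs were higher and none was lower. The calls with the Fgf5 promoter thus depended on how combinations at 0 were treated.

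Tbx3_E209, the most downstream fragment, had the highest boost averaged over the 8 promoters, 1.67 ± 0.73 (SD over libraries, n = 8). With the Sox2 promoter its boost was 2.84, 2.46 and 2.72 in the 3 replicates, with the Lefty1 promoter 2.43, 2.27 and 2.63, and with the Tbx3 promoter 2.53, 2.20 and 2.06. With the Ap1m1 promoter the replicates gave 0.67, 0.68 and 0.64. The replicates of these 3 developmental promoters all lay above those of the housekeeping promoter. With the Nanog, Otx2 and Klf2 promoters the boost was 1.46 ± 0.09, 1.23 ± 0.15 and 0.96 ± 0.02 (SD, n = 3).

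Tbx3_E208, its neighbour, averaged 1.63 ± 0.64. Its boosts were 2.10, 2.58 and 2.46 with the Lefty1 promoter, 2.10, 2.24 and 1.90 with the Sox2 promoter, 2.17, 2.26 and 1.87 with the Tbx3 promoter, and 0.65, 0.65 and 0.66 with the Ap1m1 promoter. Tbx3_E208 was measured in fewer combinations, 380 in all against 1032 for Tbx3_E209, with 13 in the Sox2 library and 3 in the Fgf5 library. The difference between both fragments was 0.04 ± 0.18 over the libraries, Tbx3_E209 being higher in 4 of 8.

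Tbx3_E203, the fragment farthest upstream, averaged 1.37 ± 0.44. Its boost was 2.04, 1.93 and 1.94 with the Lefty1 promoter, 2.10, 1.79 and 1.45 with the Tbx3 promoter, and 1.80, 1.73 and 1.61 with the Sox2 promoter. With the Ap1m1 promoter it reached 0.78, 1.03 and 0.92, the highest boost of the 6 fragments there and the third of 57 fragments measured with that promoter. It ranked lower with the Sox2 promoter, at position 26 of 56.

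The other 3 fragments were weaker. Tbx3_E206 averaged 0.65 ± 0.40, with boosts from 0.53 with the Ap1m1 promoter to 0.99 with the Tbx3 promoter when the Fgf5 library was left aside. Tbx3_E207 averaged 0.63 ± 0.43. Its boosts lay between 0.27 and 1.01 with 6 promoters and at 0.11 with Fgf5, and they were highest with the Sox2 promoter, with 1.51, 1.26 and 1.49 in the 3 replicates. Tbx3_E205 averaged 0.41 ± 0.68 and varied least among promoters, from 0.42 to 0.82, apart from the Fgf5 library, where 6 combinations gave -1.07, -1.64 and -1.23.

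By an exact sign-flip permutation test over the 8 libraries, 5 of the 6 averages passed 5% FDR, against 74.5% of the 47 fragments measured with all promoters. Tbx3_E205 did not (adjusted p = 0.157), but without the Fgf5 library its average was 0.64, with an adjusted p of 0.0169. The smallest unadjusted p that 8 libraries allow is 0.00781.

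In the order of the 47 averages, Tbx3_E209 was at rank 12, Tbx3_E208 at 14 and Tbx3_E203 at 16. Sox2_E183 stood above them with 1.95, Sox2_E179 with 1.66 and Sox2_E182 with 1.59 lay between them, and Lefty1_E093 followed with 1.33. Tbx3_E206 and Tbx3_E207 held ranks 30 and 31, between Otx2_E114 with 0.68 and Fgf5_E039 with 0.57. Tbx3_E205 was at rank 38, between Sox2_E181 with 0.46 and Otx2_E109 with 0.37. Among neighbours within the locus, the step from Tbx3_E203 to Tbx3_E206 was 0.72 ± 0.26, present in 8 of 8 libraries (exact sign-flip test, p adjusted over 5 steps = 0.0391). The other 4 steps did not pass, with adjusted p from 0.312 to 0.906 in the same exact test. These steps were tested after the order had been seen.

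Each fragment was compared between the Tbx3 promoter and the 7 other promoters. Of 42 contrasts, 27 passed 5% FDR (limma over replicates), against 60.2% of the 387 contrasts of all loci. The boost was higher with the Tbx3 promoter in 25 of them. This held for all 6 fragments against the Ap1m1, Klf2 and Fgf5 promoters, for 4 against Otx2 and for 3 against Nanog. Over all loci it held for 48 of 57 fragments against Ap1m1, 44 of 57 against Klf2 and 42 of 47 against Fgf5. Against Otx2 it held for 43 of 57 and against Nanog for 34 of 57, so the direction was shared by most fragments. The widest gap was that of Tbx3_E205 with Fgf5, a difference of -2.09 from the Tbx3 promoter (SE 0.12, limma adjusted p = 3.6e-12) that rested on 6 combinations in the Fgf5 library. All contrasts with Fgf5 use a baseline from 23 of 60 CC combinations, the others being at 0 in a replicate. Their p-values, over replicates, do not cover how combinations at 0 were treated. Among the contrasts with Ap1m1, Tbx3_E209 had the widest, with a difference of -1.60 on the log2 scale (SE 0.16, adjusted p = 2.4e-08). For Tbx3_E205 the gap to Ap1m1 was much smaller, 0.34 (SE 0.12, adjusted p = 0.0185). None of the 6 fragments passed against the Lefty1 promoter, whose differences from the Tbx3 promoter lay between 0.00 and 0.28 with SEs of 0.12 to 0.24. Over all loci 5 of 57 fragments passed against Lefty1.

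The 2 contrasts that went the other way were both with the Sox2 promoter. Tbx3_E207 was higher by 0.46 (SE 0.12, adjusted p = 0.00171) and Tbx3_E209 by 0.41 (SE 0.16, adjusted p = 0.0362) than with the Tbx3 promoter. Over all loci 16 of 55 fragments were called higher with the Sox2 promoter and 1 with the Tbx3 promoter.

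Promoters also differ in how strongly they respond to fragments in general. Each boost was therefore set against a line that relates the boosts of a promoter to the mean boost of the same fragments over the other promoters, fitted on the fragments of other loci. Of 48 departures 25 passed 5% FDR (limma), 16 above and 9 below the line. Over all loci 40.4% of the 376 departures passed, 81 above and 71 below the line. Without replicate 1 none passed at 5% FDR in limma and 26 had an unadjusted p below 0.05.

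With the Tbx3 promoter no fragment of the locus lay above the line at this FDR. Tbx3_E203 fell by 0.29 (-0.13, -0.31 and -0.30 in the replicates) and Tbx3_E208 by 0.33 (-0.45, -0.22 and -0.21) below it. The widest called departure was that of Tbx3_E205 with the Fgf5 promoter, -1.08, and rested on 6 combinations and a baseline from 23 of 60 CC combinations. With the Sox2 promoter the fragments split. Tbx3_E203 lay 0.62, 0.52 and 0.73 below the line and Tbx3_E206 lay 0.67, 0.33 and 0.53 below it in the 3 replicates. Tbx3_E208 was also called below the line, at -0.62, -0.30 and -0.71. Tbx3_E207 lay 0.27, 0.13 and 0.25 above it. With the Ap1m1 promoter 5 of the 6 fragments lay above the line, led by Tbx3_E203 at 0.40, 0.56 and 0.53. Tbx3_E207 was the exception there, at -0.01, -0.02 and -0.05. The same 5 fragments were called above the line with the Nanog promoter. With Otx2 this held for Tbx3_E203, Tbx3_E205 and Tbx3_E206, and with Klf2 for Tbx3_E203 and Tbx3_E206. The shares called over all loci with each single promoter are not given here, so these counts have no background by promoter.

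The position of a fragment within the pair changed its boost by a median of 0.16 log2 units in 46 fragment-promoter pairs, against 0.21 over all loci. Limma used the spread over replicates, which share barcodes, and called 12 of 46 differences at 5% FDR, against 40% of 433 over all loci. An exact rank-sum test over combinations, chosen after seeing the data, called 11. Both tests called 10 differences, or 21.7%, against 28.9% of all loci, and all 10 were higher in position 2.

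Tbx3_E206 accounted for 6 of these 10. With the Tbx3 promoter its boost was 0.69 in position 1 and 1.15 in position 2, a difference of 0.50, 0.41 and 0.37 in the replicates (limma adjusted p = 0.0109, exact rank-sum adjusted p = 2.5e-06). With the Lefty1 promoter the boosts were 0.70 and 1.11, with Sox2 0.63 and 0.97, with Nanog 0.54 and 0.85, with Klf2 0.45 and 0.77, and with Ap1m1 0.31 and 0.64. With Otx2 they were 0.61 and 0.79 and did not pass in limma (adjusted p = 0.0657). The strands were unequal in position 1, with 18 plus and 40 minus combinations with Klf2. On the plus strand the boosts in positions 1 and 2 were 0.69 and 0.73 with Klf2 and 0.69 and 0.83 with Nanog. They were 0.58 and 1.06 with Lefty1 and 0.95 and 0.72 with Otx2. On the minus strand they were 0.43 and 0.81, 0.50 and 0.93, 0.76 and 1.18, and 0.51 and 0.91, in the same order. The position effect within a strand was not tested. Tbx3_E203 was higher in position 2 with Ap1m1, Klf2 and Otx2, by 0.40, 0.20 and 0.23, and Tbx3_E209 with Ap1m1, by 0.19. No difference of Tbx3_E205, Tbx3_E207 or Tbx3_E208 passed both tests. The limma count was sensitive to the replicates: without replicate 1 it was 0 (11 at an unadjusted p below 0.05), and without replicate 3 it was 2.

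The strand of a fragment was compared within each position in 83 cases. Limma called 36 of them at 5% FDR, against 40.3% of 714 over all loci. Both tests called 24, or 28.9%, against 27.2% of all loci. Of these 24, the plus strand was higher in 17 and the minus strand in 7. Most of them belonged to Tbx3_E203 and Tbx3_E207.

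Tbx3_E203 was more active on the plus strand. This passed both tests in 12 of its 15 cases, and its difference was positive in all 15. With the Tbx3 promoter the plus strand gave a boost of 2.09 and the minus strand of 1.54 in position 1, a difference of 0.61, 0.52 and 0.48 in the replicates. In position 2 they were 2.21 and 1.67, a difference of 0.47, 0.47 and 0.45. The same comparison in position 2 gave 1.30 and 0.84 with Ap1m1 and 2.33 and 1.88 with Lefty1.

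Tbx3_E207 went the other way, with 6 of 15 cases passing both tests and the minus strand higher in each. Its widest difference was with the Nanog promoter in position 2, where the plus strand had a boost of -0.01 and the minus strand of 0.74, a difference of -0.57, -0.85 and -0.55. With the Klf2 promoter it was 0.38 lower on the plus strand in position 1 and 0.34 lower in position 2. With the Sox2 promoter, its strongest, neither position passed (limma adjusted p = 0.0734 and 0.0927).

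For Tbx3_E209 the strand difference changed between the positions. With the Sox2 promoter the plus strand had a boost of 2.28 and the minus strand of 3.03 in position 1, a difference of -0.73, -0.76 and -0.88. In position 2 the boosts were 2.67 and 2.56, a difference of 0.20, 0.27 and 0.05 that did not pass in limma (adjusted p = 0.0987). The change of the strand difference between the positions was 0.87 (SE 0.08, limma adjusted p = 0.00311). It passed 5% FDR in limma for Tbx3_E209 with 6 of 8 promoters, always in the same direction. Over all loci 26% of 300 such changes passed, and 8 of 37 at this locus. Of its own strand differences 4 passed both tests, 3 higher on the plus strand. No difference of Tbx3_E208 passed both tests, and Tbx3_E205 and Tbx3_E206 had 1 each. Leaving out replicates 1 or 2 reduced the limma count of strand differences to 0, with 34 at an unadjusted p below 0.05 in each case, and leaving out replicate 3 to 17.

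The same-locus pairs covered 29 of 36 possible ordered pairs of the 6 fragments, and no fragment was paired with itself. The values of an ordered pair are medians over its 1 to 4 strand combinations. Of 834 combinations 796 could be set against an expected additive activity, which is the sum of the median activities of both fragments alone, each in its own position, minus the baseline. The remaining 38 were in the Fgf5 library. The result was 211 pair-promoter values. In 207 of them, or 98.1%, the pair was more active than the stronger of its fragments alone, by a median of 0.53 log2 units. Over all loci this held for 80.2% of 20334 values, and for pairs of a Tbx3 fragment with other loci for 90.7% of 4021.

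The pair of Tbx3_E209 in position 1 and Tbx3_E203 in position 2 had the highest activity with 7 of 8 promoters. With the Tbx3 promoter it reached 1.87, 1.51 and 1.70 in the replicates, where Tbx3_E209 alone gave 0.555 and Tbx3_E203 alone 0.410, and where 0.853 was expected from their sum. With the Lefty1 promoter it reached 1.71, 1.37 and 1.66 against 0.746 expected. With the Ap1m1 promoter it reached 1.70, 1.80 and 1.71 against 1.54 expected. The baselines of these 3 promoters ranged from 0.0866 to 0.587. Each activity is relative to the total of its own library, so similar values in different libraries do not show equal output. Its activity was 1.72 with Fgf5, 1.61 with Klf2, 1.94 with Nanog and 2.02 with Otx2. With the Sox2 promoter the highest activity belonged to Tbx3_E209 with Tbx3_E208, at 3.06, 2.11 and 3.06 against 1.57 expected.

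The lowest activity was that of Tbx3_E206 with Tbx3_E207 with 5 promoters. It was 0.309 with the Tbx3 promoter against 0.296 expected, 0.235 with Lefty1 against 0.217, 0.616 with Klf2 against 0.640, 0.705 with Otx2 against 0.779 and 0.847 with Ap1m1 against 0.860. The lowest with Nanog was Tbx3_E205 with Tbx3_E207 at 0.532. With Sox2 it was Tbx3_E206 with Tbx3_E205 at 0.491, and with Fgf5 Tbx3_E207 with Tbx3_E206 at 0.391.

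Same-locus pairs were on balance more active than the sum with the promoters of low baseline and close to it with the others. The median log2 ratio of observed to expected additive activity was 0.53 with the Tbx3 promoter, 0.45 with Lefty1, 0.43 with Sox2 and 0.84 with Fgf5. It was 0.07 with Nanog, 0.07 with Klf2, 0.02 with Otx2 and 0.02 with Ap1m1. The Fgf5 value rests on a baseline from 23 of 60 CC combinations, and the part of this in the value was not tested. For that promoter at low activity, the paper considers underestimated expectations a likely inaccuracy of sparse data. Limma over replicates called 85 of 211 values above the sum and 2 below at 5% FDR, against 23.2% above and 11.3% below of 20334 values over all loci. Of the 85, 74 were with the 4 promoters of lowest baseline, among 99 values. With the 4 others 11 of 112 were called. Over all loci the split by baseline ran the same way, with 41.3% of 9380 values called above the sum with the 4 promoters of lowest baseline and 7.65% of 10954 with the others. The share at this locus was thus higher with the former, at 74.7%, and near the background with the latter, at 9.82%. By promoter the same-locus share was 82.8% with Lefty1, 85.7% with Tbx3, 71.4% with Sox2 and 42.9% with Fgf5. For pairs of a Tbx3 fragment with other loci it was 59.1%, 59.6%, 51.0% and 43.9%, in the same order. Over all pairs it was 42.8%, 44.2%, 34.6% and 42.8%.

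Limma over strand combinations, chosen after seeing the data, called 48 above the sum. Both tests called 43 of 211 above, against 7.89% over all loci, and none below. These 43 were 14 of 28 values with the Tbx3 promoter, 11 of 29 (37.9%) with Lefty1, 11 of 28 (39.3%) with Sox2 and 5 of 14 (35.7%) with Fgf5. Nanog and Klf2 had 1 of 28 each. Over all pairs the shares were 15.9% with Tbx3, 16.9% with Lefty1, 8.71% with Sox2 and 28.0% with Fgf5. Pairs of a Tbx3 fragment with other loci passed both tests above the sum in 511 of 4021 values, or 12.7%. With Tbx3, Lefty1, Sox2 and Fgf5 their shares were 27.3%, 30.3%, 15.9% and 33.4%. Without replicate 1 or replicate 2 no same-locus value passed 5% FDR in limma, with 82 and 86 at an unadjusted p below 0.05, and without replicate 3, 60 passed. By the methods' limit of 1 propagated SD, 26.1% of the 796 combinations lay above the expectation, 0.377% below and 73.5% within it. Over all pairs 17.9% lay above, 8.07% below and 74.1% within, so the share within was near the background. With the Tbx3 promoter 57.9% lay above, against 34.9% over all pairs, and with Ap1m1 1.83%, against 2.62%. For pairs of a Tbx3 fragment with other loci these shares were 43.8% and 3.30%.

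The 5 widest departures called above the sum all involved Tbx3_E203. Tbx3_E209 with Tbx3_E203 exceeded it by 1.12, 1.00 and 1.04 with the Lefty1 promoter (limma adjusted p = 0.00863) and by 1.05, 0.87 and 1.02 with the Tbx3 promoter (adjusted p = 0.00863). With the Fgf5 promoter the excess was 0.79, 0.49 and 1.41 (adjusted p = 0.0352). Tbx3_E207 with Tbx3_E203 exceeded it by 0.92, 0.79 and 1.09 with the Tbx3 promoter (adjusted p = 0.00863). Tbx3_E203 with Tbx3_E205 had the widest median excess, 1.44, with the Fgf5 promoter. Its replicates gave 1.96, 0.50 and 2.34, and the expected activity of 0.215 there was close to the baseline of 0.213.

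Both values called below the sum by limma were with the Nanog promoter. Tbx3_E208 with Tbx3_E207 gave -0.40, -0.16 and -0.45 (adjusted p = 0.0436) and Tbx3_E205 with Tbx3_E207 gave -0.32, -0.16 and -0.24 (adjusted p = 0.0464). Neither passed over strand combinations, with adjusted p of 0.233 and 0.412.

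Pairs that held Tbx3_E203 had a median log2 ratio of 0.35 over 77 values, and 29 of these passed both tests. For the other fragments the medians were lower, from 0.14 for Tbx3_E208 to 0.19 for Tbx3_E205, and between 8 and 17 values passed both tests. The order within the pair can be read from Tbx3_E209 and Tbx3_E203. With Tbx3_E209 first the median over 8 promoters was 0.55, and with Tbx3_E203 first it was 0.31. Tbx3_E206 with Tbx3_E209 had a median of -0.02, and none of its 8 values passed in limma. The differences between these medians were not tested.

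Same-locus pairs were compared with pairs of a Tbx3 fragment and a fragment of another locus by the median log2 ratio of observed to expected activity. Same-locus pairs were higher in 8 of 8 libraries. The difference was 0.12 with the Lefty1 promoter (0.12, 0.10 and 0.06 in the replicates), 0.12 with Tbx3 (0.12, 0.17 and 0.08) and 0.14 with Sox2 (0.15, 0.075 and 0.11). It was 0.13 with Fgf5, where the replicates gave 0.23, -0.10 and 0.29. With Otx2, Klf2, Nanog and Ap1m1 it was 0.06, 0.05, 0.04 and 0.03. A same-locus pair holds Tbx3 fragments in both positions, and a pair with another locus does not. The mix of fragments, such as the share of pairs with Tbx3_E203, was not matched between both sets. Its part in the difference was not tested.

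The mean over libraries was 0.088 ± 0.047 (SD, n = 8, exact sign-flip test, p = 0.00781, the smallest this design allows). When the pairs with other loci were weighted to the expected activities of the same-locus pairs, an alternative chosen after seeing the data, the mean fell to 0.044 and stayed above 0 in 8 of 8 libraries. The same difference computed for the other 8 loci ranged from -0.16 for Klf2 to 0.08 for Fgf5, and the libraries are shared by all loci. It was above 0 in 0 of 8 libraries for Klf2, Nanog, Pou5f1 and Sox2. For Nodal, Otx2, Fgf5 and Lefty1 it was above 0 in 4, 5, 6 and 7 libraries. Every library holds the same Tbx3 fragments, so the sign-flip test does not cover the choice of fragments. The paper reports a slightly lower average ratio for pairs within a locus than for pairs between loci.

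A multiplicative expectation, the product of both single activities divided by the baseline, was set against the additive one. The median absolute log2 deviation was smaller under the multiplicative expectation with the Tbx3 promoter (0.316 against 0.503), with Lefty1 (0.317 against 0.492) and with Sox2 (0.322 against 0.444). It was smaller under the additive expectation with Otx2 (0.142 against 0.326) and Nanog (0.213 against 0.337). With Klf2, Ap1m1 and Fgf5 the absolute deviations differed by at most 0.027. The difference averaged -0.017 ± 0.135 over the 8 libraries, with 4 on each side of 0 (exact sign-flip test, p = 0.773). With the promoters of low baseline other than Fgf5 the observed activities lay between both expectations, with a median log2 ratio to the multiplicative expectation of -0.21 for Tbx3, -0.31 for Lefty1 and -0.33 for Sox2. With Fgf5 this median was 0.74, so the pairs there were on balance above both expectations.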

How the data were processed

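Activities of enhancer-enhancer-promoter combinations were measured in 8 libraries with 3 cDNA replicates each. The replicates were transfected on different days. They share barcodes, so p-values over replicates do not cover differences between barcodes. The authors linked barcodes to fragment pairs with Bowtie2 on the fragment sequences (positions in mm10), clustered barcodes with Starcode, and deposited the cDNA:pDNA ratio of normalised barcode counts averaged per combination. The deposited baselines, expectations and cooperativity columns were not used.

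Combinations at 0 in any replicate were left out. Replicate ratios were averaged geometrically, and medians over combinations required at least 3. Fragments were set against controls by exact rank-sum tests at 1% FDR. Replicate differences were tested with limma 3.58.1 in R 4.3.3 at 5% FDR, adjusted over all loci, and library values by exact sign-flip tests. The scripts were tested on simulated data. When the replicates shared deviations of single combinations there, limma over replicates also called differences without a planted effect. Tests over combinations were therefore added for positions, strands and pairs. The promoter contrasts, the departures from the promoter line and the changes of strand difference between positions were tested over replicates alone. Named were all Tbx3 fragments, their neighbours in the order of average boost, the up to 5 called pairs with the widest departure in each direction, and the pairs of highest and lowest activity. Members and lists were chosen with earlier results of these data known. Alternatives were leaving out each replicate, other minimum numbers of combinations, shuffled controls only, means of logarithms, strand-matched singles, a replicate block, and leaving out libraries. Motifs within the fragments were not searched, since the fragment sequences were not used here.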

Additional observations from a re-analysis of the deposited data

Results flagged for a closer look

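With the Fgf5 promoter, the boost indices of Tbx3_E205 (-1.24) and Tbx3_E206 (-0.26) stood apart from those of the same fragments in the other 7 libraries by Dixon's test, which chance alone passes in about 1 of 20 groups. The Fgf5 library is the one in which most control-control combinations were at 0, and the part of this in the values was not tested. When combinations at 0 were kept, 47 of the 48 fragment-promoter pairs of the locus were called higher than the controls and none lower.

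Position differences of 3 fragments had opposite signs with different promoters in every replicate, a contrast that was not itself tested. The promoters named are the highest and lowest of those whose sign held in every replicate. Tbx3_E203 was higher in position 2 by 0.40 with the Ap1m1 promoter and had a difference of -0.18 with Sox2. For Tbx3_E208 the differences were 0.18 with Ap1m1 and -0.27 with Nanog, and for Tbx3_E209 they were 0.19 with Ap1m1 and -0.084 with Sox2. The strand difference of Tbx3_E208 in position 2 likewise had opposite signs, 0.29 with the Tbx3 promoter and -0.19 with Ap1m1, and this contrast was not tested. Each passed in limma (adjusted p = 0.0423 and 0.0194) but not in the exact rank-sum test (adjusted p = 0.496 and 0.121).

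The strand difference of Tbx3_E209 changed between the positions by a limma test of the change at 5% FDR. This test does not ask whether the sign differs. With Klf2 and Lefty1 alone, limma called the minus strand higher in position 1 and the plus strand higher in position 2. In position 1 neither passed the exact rank-sum test over combinations (adjusted p = 0.216 and 0.223). The change was 1.94 with Fgf5, 0.87 with Sox2, 0.60 with Tbx3, 0.55 with Lefty1, 0.46 with Klf2 and 0.39 with Nanog. With Fgf5 the replicates gave 1.44, 0.80 and 3.11. There the plus strand had 7 combinations in position 1 and the minus strand 6 in position 2. Tbx3_E206 showed the opposite change with Otx2, of -0.63. Boosts that differed between the Tbx3 promoter and another promoter made up 27 of 42 contrasts.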

How the results depend on the processing

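Of 112 values under other settings 90 kept their direction and their side of the threshold. Leaving out 1 replicate gave 0 to 8 position differences, 0 to 17 strand differences, 0 to 24 departures from the promoter line, and 0 to 60 same-locus pairs off the sum, with 0 to 60 above it and 0 below it. Means of logarithms gave 28 position differences, and a minimum of 10 fragment-control combinations gave 20, in place of 12. Over strand combinations 48 pairs were off the sum, 48 above and 0 below (1 below at an unadjusted p below 0.05 in limma). The count below the sum was also 0 with strand-matched single activities and with shuffled controls only (4 at an unadjusted p below 0.05 in limma in each case). The average boost of Tbx3_E205 without the Fgf5 library was 0.64. The mean difference between multiplicative and additive deviations turned to 0.0199 with strand-matched single activities. No same-locus pair joined a fragment to itself, so leaving such pairs out changed nothing.

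With the replicate block, promoter contrasts gave 27 calls, as without it. Between libraries, replicates that carry the same number had deviations that correlated at r = 0.45 on average, from -0.21 to 0.86, and 23 of 24 samples correlated best with their own number. The numbers were not taken as a pairing, since not every correlation was above 0.1. Precision is limited by 3 replicates and by unknown barcode depth.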
